A study of Solanum lycopersicum with 120 samples.

Results

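The response of the first leaf 24 h after the start of low R/FR was compared with the response of the cotyledons of tomato seedlings to the same light. For every gene the log2 fold change of 24FR over 24WL in the cotyledons was subtracted from that in the first leaf, and the difference is called the interaction here. A value above 0 means that the first-leaf response lay above the cotyledon response. The comparison used 12 of the 120 samples, 3 biological replicates for each of the 4 combinations of organ and light, chosen by their labels for genotype, organ, time and light.

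All 12 samples came from wild-type (WT) seedlings of *Solanum lycopersicum* cv. M82 grown for 12 days in long days at 24 °C. Their white light, called 24WL, had an intensity of 200 µmol per square metre and second. At zeitgeber time 2, that is 2 h after lights-on, seedlings were either moved to white light of the same intensity with far-red light added (24FR, R/FR of 0.6) or kept in 24WL. The organs were taken 24 h later, a span that included the dark period of the long day. The groups were therefore WT first leaf in 24FR, WT first leaf in 24WL, WT cotyledons in 24FR and WT cotyledons in 24WL. Each replicate pooled the organ of 4 seedlings, so that p-values measure the spread between pools of this size. Both organs were taken whole and hold all of their cell types.

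Light reflected or filtered by neighbouring leaves is poor in red relative to far-red. Phytochrome B, a red and far-red photoreceptor, is inactivated in such light, and phytochrome-interacting factors (PIFs) are then free to act on genes of auxin, gibberellin and brassinosteroid signalling and on the HD-Zip II transcription factors that mark the shade response. Cotyledons are embryonic leaves that are already expanded at this stage, whereas the first leaf is formed after germination and is still growing.

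The 12 libraries held 18.8 to 28.8 M read counts on genes (M, megacounts), with the lowest totals in the cotyledons in 24FR (18.8 to 20.5 M). Replicates of a group correlated across genes with a Pearson r of 0.984 to 0.995 on log2 CPM, and no pair looked like one library deposited again. As a check on dissection, 3 genes of shoot apex and stem (KNOTTED-type homeobox genes and a *WOX4* gene) summed to 5.52 to 7.69 and 6.10 to 8.62 CPM in the first leaf (24FR and 24WL) and to 4.85 to 6.07 and 3.90 to 6.64 CPM in the cotyledons, against 113 to 272 CPM in hypocotyl and epicotyl. A set of 5 mitotic cyclins, markers of dividing cells, summed to 50.4 to 72.7 and 73.0 to 80.4 CPM in the first leaf and to 11.6 to 15.8 and 8.33 to 12.2 CPM in the cotyledons. None of these markers was called for the interaction. A further set, 5 chlorophyll a-b binding genes as markers of green tissue, was called in full and belongs to the genes described below.

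The cotyledons answered with more genes and with larger fold changes than the first leaf. Of 17469 genes tested, 305 (1.75%) differed between the organs in their response to 24FR at an adjusted p under 0.05 (quasi-likelihood test of edgeR, Benjamini-Hochberg adjusted over all genes tested), 160 of them with an interaction above 0 (0.916%) and 145 with one below 0 (0.83%). The median interaction was 0.57 among the 160, −0.61 among the 145 and 0.01 over all genes, and 24 of them lay above 1 and 27 below −1 on the log2 scale (0.137% and 0.155% of the genes tested). In the first leaf 106 genes rose (0.607%) and 91 fell (0.521%) in 24FR relative to 24WL, 1.13% in all, where a call also needed a change of more than 1 on the log2 scale. In the cotyledons 277 rose (1.59%) and 171 fell (0.979%), 2.56% in all. Both organs shared 164 of these calls, which were 83.2% of the first-leaf calls and 36.6% of the cotyledon calls. All 164 changed in the same direction. Their median absolute log2 fold change was 1.55 in the first leaf and 2.05 in the cotyledons, and for 118 of them the cotyledon value was the larger.

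The genes above 0 were mostly genes that fell in the cotyledons, and those below 0 mostly genes that rose there. The interaction is made from the same libraries as both responses, so that this split describes the calls and is no further test. Counting every response at an adjusted p under 0.05, whatever its size (7.91% of all genes in the first leaf and 28.2% in the cotyledons), 145 of the 160 fell in the cotyledons and did not pass the test in the first leaf, and 14 fell in both organs, more strongly in the cotyledons. Of the 145 genes below 0, 107 rose in the cotyledons without passing the test in the first leaf, and 30 rose in both, more strongly in the cotyledons. Only 3 genes passed in both organs in the same direction with the larger response in the first leaf (*Solyc11g008530*, *Solyc11g066580* and *Solyc11g069700*), and 4 passed in the first leaf and not in the cotyledons (*Solyc03g053110*, *Solyc12g049310*, *Solyc11g073200* and *Solyc11g008540*, which were picked out after their values were seen). Opposite responses that passed in both organs were found for 1 gene, which rose in the cotyledons and fell in the first leaf, and 1 gene passed in neither organ. A gene that misses the threshold in the first leaf has not been shown to be unaffected there. The split of the 305 calls depended on scaling: the 160 and 145 genes given by TMM, 52.5% above 0, became 272 and 114 with the size factors of DESeq2 in the same fit, 460 and 123 in DESeq2's own Wald test, and 109 and 1091 with plain library totals. The last scaling moved the median interaction of all genes to −0.15 and that of the cotyledon response to 0.18. It also gave 467 genes that rose and 121 that fell in the cotyledons. Most of the 305 calls depended on the groups fitted together. The main fit used all 72 WT libraries, hypocotyl and epicotyl included. A fit of the 4 compared groups alone called 159 genes, 85 above 0 and 74 below it. Only 115 of these were among the 305, so that 37.7% of the main calls were kept. The cause of this loss was not tested.

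The size of the call set also depended on single libraries. The 160 genes above 0 became 104 without first leaf 24FR replicate 1, 87 without replicate 2 and 247 without replicate 3 of that group, 91 without first leaf 24WL replicate 2, 80 without cotyledon 24FR replicate 3, and 93, 104 and 278 without cotyledon 24WL replicates 1, 2 and 3. The 145 genes below 0 became 84 without first leaf 24WL replicate 1 and 93 without cotyledon 24FR replicate 1. The genes described one by one here are those with the largest interactions and those of the gene lists.

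**Figure D1:**
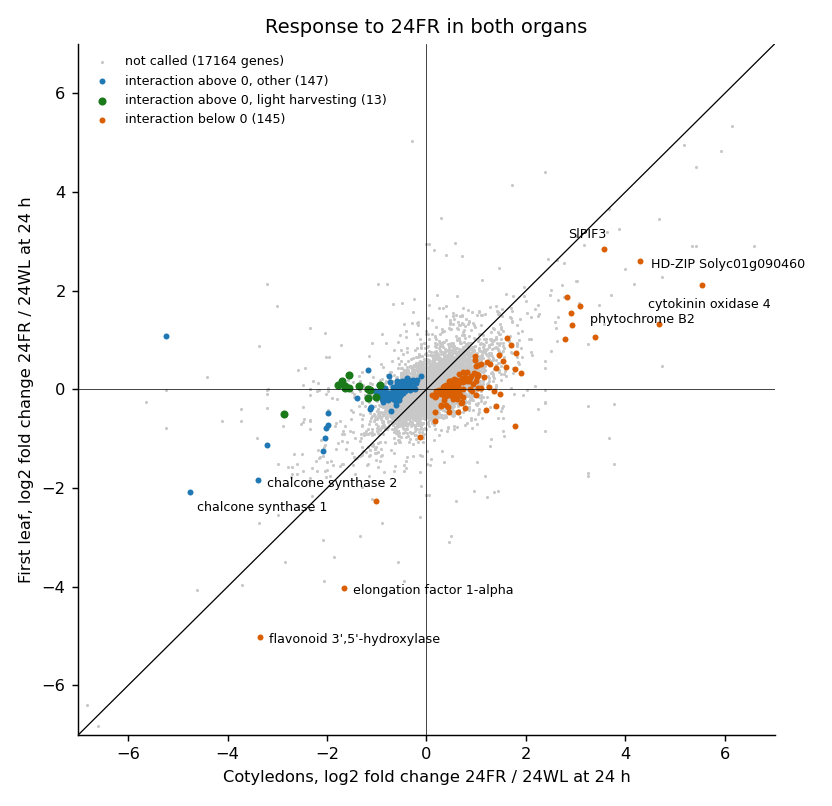
Log2 fold change of 24FR over 24WL at 24 h in the first leaf (vertical axis) against that in the cotyledons (horizontal axis), 1 dot per gene, with the line of equal response. Colours mark the genes called for the interaction. Most orange dots lie right of 0 and below the line and most blue dots left of 0 and above it, and the 13 light-harvesting genes lie near 0 on the first-leaf axis. The axes end at 7 in each direction, which leaves 10 genes outside, 1 of them called.

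Among the genes above 0, the group with the most calls was that of the chlorophyll a-b binding proteins, which carry chlorophyll in the light-harvesting antennae of both photosystems. Of 19 genes listed for light harvesting and the photosystems, all of them tested, 13 were called above 0 and 0 below it, with a list median of 1.12 against 0.01 for all genes. The list was collected by product name from genes that the study had mostly selected on these libraries, so its count is not independent evidence. The 13 genes were called in every fit that left out 1 of the 12 libraries. In the cotyledons all 13 fell, with log2 fold changes of −2.87 to −0.93, which is a 1.90- to 7.30-fold lower level in 24FR. In the first leaf the same 13 stood between −0.49 and 0.29, and only *Solyc02g070950* passed the test there (adjusted p = 0.0146, edgeR).

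*Solyc02g070950* had 518, 494 and 473 CPM in the first leaf in 24FR, against 684, 694 and 708 CPM in 24WL. In the cotyledons it had 21.3, 26.8 and 24.4 CPM in 24FR, against 162, 188 and 179 CPM in 24WL. The groups did not overlap in either organ, but the fold change between them was far larger in the cotyledons. Its interaction was 2.38 ± 0.20 (SE), the largest of the list (adjusted p = 4.58e-12).

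*Solyc02g071000* stood at 370.1, 355 and 372 CPM in 24FR and at 312, 318 and 342 CPM in 24WL in the first leaf. The corresponding cotyledon values were 48.3, 79.5 and 72.8 CPM in 24FR and 200.1, 242 and 205 CPM in 24WL. Here every 24FR replicate of the first leaf was above every 24WL replicate, the opposite order to that in the cotyledons, although the first-leaf fold change of 0.18 ± 0.15 did not pass the test (adjusted p = 0.559). The interaction was 1.86 ± 0.21 (adjusted p = 5.95e-08, edgeR's quasi-likelihood test).

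For *Solyc02g070990* the first leaf gave 806, 754 and 745 CPM in 24FR and 643, 622 and 619 CPM in 24WL, and the cotyledons gave 109, 114 and 120.5 CPM in 24FR and 352, 366 and 299 CPM in 24WL, an interaction of 1.85 ± 0.22 (adjusted p = 8.71e-08). *Solyc06g069730* gave 542, 498 and 469 against 487, 449.8 and 484 CPM in the first leaf, groups that overlapped, and 53.8, 44.8 and 27.6 against 153, 121 and 155 CPM in the cotyledons, groups that did not. Its interaction was 1.85 ± 0.23 (adjusted p = 2.69e-07). The other 9 called members had interactions of 0.87 to 1.70, with *Solyc03g115900* the lowest. Chlorophyll a-b binding genes can be near-identical, and 6 of the 13 carry neighbouring identifiers on chromosome 2. How reads that match several copies were handled was not examined, so the values of single copies and of their sum are less certain.

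Summed over the 13 genes, the first leaf held 10942, 10872 and 10951 CPM in 24FR and 10842, 11107 and 11613 CPM in 24WL. The cotyledons held 2762, 3377 and 3129 CPM in 24FR and 6918, 7590 and 7047 CPM in 24WL. The first-leaf groups overlapped and the cotyledon groups stood far apart. In whole organs, a smaller share of green cells and less of these RNAs per cell cannot be told apart. In 24WL the first leaf was already above the cotyledons for every one of the 13, by a log2 difference of 0.32 to 1.98 (12 of them past the threshold), and in 24FR the difference widened to between 1.20 and 4.36.

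The other 6 listed genes were not called and behaved in various ways. *Solyc12g013710*, a light-dependent protochlorophyllide oxidoreductase that makes a chlorophyll precursor, rose in the first leaf, with 120.1, 113 and 72.8 CPM in 24FR against 50.5, 34.2 and 46.0 CPM in 24WL (log2 fold change 1.22 ± 0.20, adjusted p = 1.79e-05). In the cotyledons it stood at 0.49 ± 0.22 (adjusted p = 0.0912), and its interaction of 0.74 ± 0.30 was not called (adjusted p = 0.206). *Solyc09g011080*, an activase of Rubisco, fell by 0.99 in the first leaf and fell by 1.44 in the cotyledons on the log2 scale. Both PsbP genes, a photosystem I subunit N gene and *Solyc12g056620* had interactions of −0.03 to 0.43, none of them called.

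**Figure D2:**
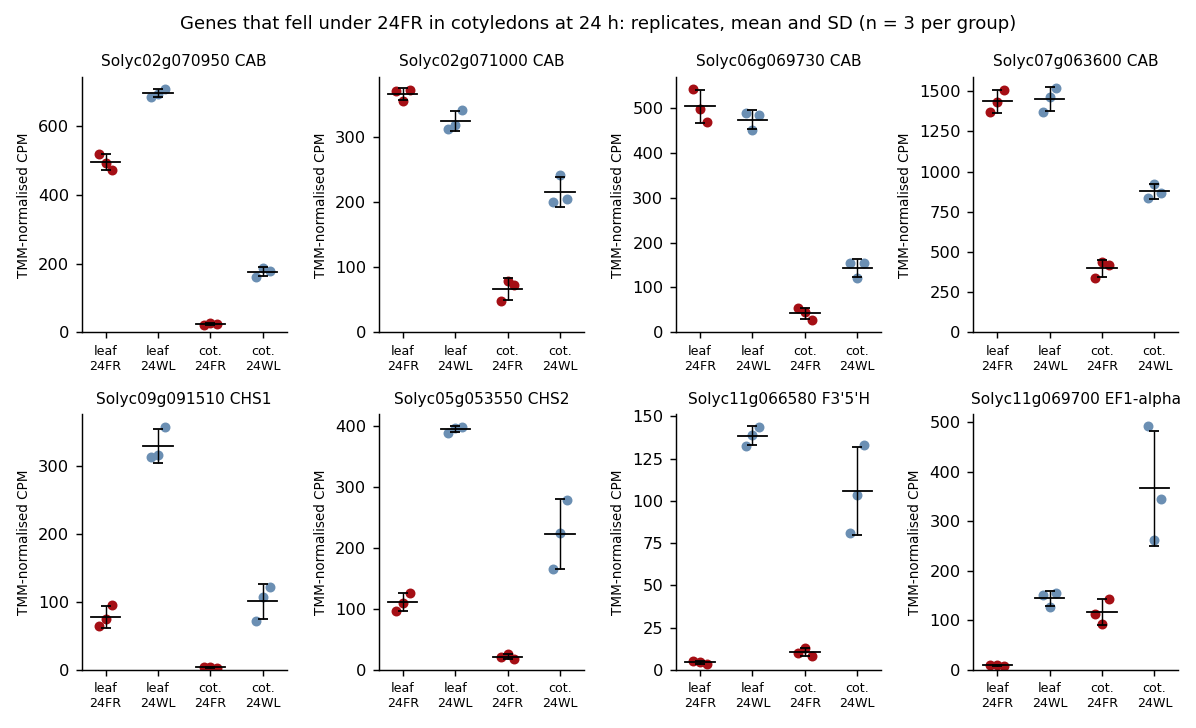
TMM-normalised CPM of 8 genes that fell in the cotyledons in 24FR at 24 h, with 1 panel per gene, 3 replicates per group (dots), their mean (long bar) and SD (whiskers). The 4 chlorophyll a-b binding genes are lower in 24FR than in 24WL in the cotyledons, while in the first leaf their 24FR level is near, above or somewhat below that in 24WL. Chalcone synthase 1 and 2 fall in both organs, whereas flavonoid 3',5'-hydroxylase and elongation factor 1-alpha reach their lowest values in the first leaf in 24FR.

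The difference in the light-harvesting genes was seen at 24 h. After 6 h the interaction of the same 13 genes was −0.26 to 0.01 and after 3 h −0.02 to 0.27, and 0 of them were called at either time (adjusted p of 0.871 or higher). The interaction at 24 h minus that at 6 h was called for all 13, with values of 0.93 to 2.49, and minus that at 3 h for 12 of them, the exception being *Solyc12g006140* (0.86, adjusted p = 0.0836). Across all genes these differences were called for 72 (0.412%) and 58 (0.332%). The summed level of the 13 was 36974 to 40861 CPM in 24FR and 34515 to 42650 CPM in 24WL in the first leaf after 6 h, and 29611 to 34586 and 25476 to 34715 CPM in the cotyledons. Samples of 3, 6 and 24 h were taken at zeitgeber times 5, 8 and 2, so that duration of treatment and time of day cannot be told apart. In the stem organs at 24 h the median response of these genes was −0.49 for the hypocotyl and −0.35 for the epicotyl.

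**Figure D3:**
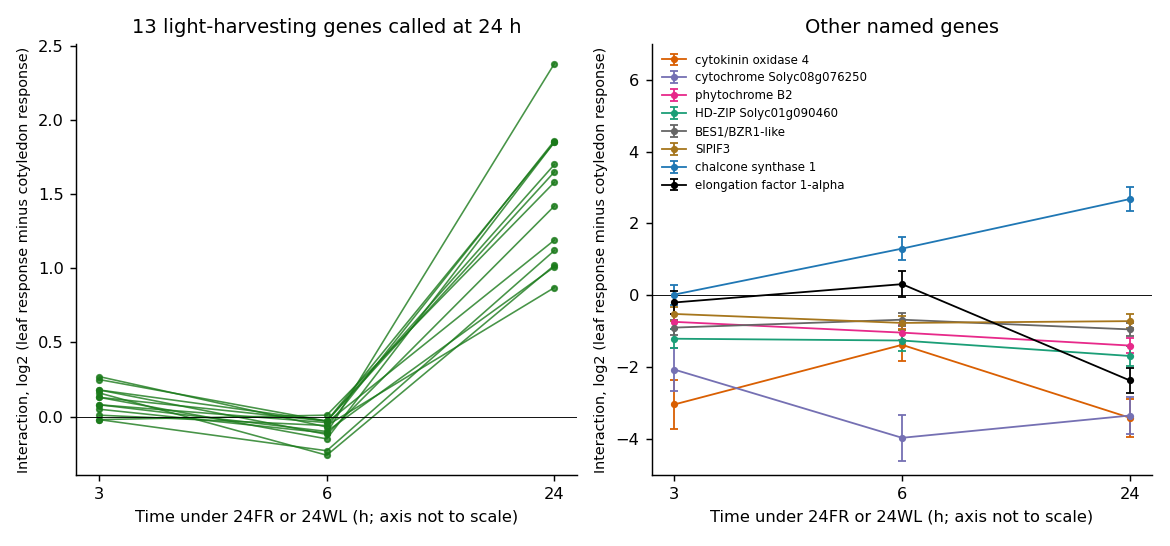
Interaction (first-leaf response minus cotyledon response, log2) after 3, 6 and 24 h for the 13 light-harvesting genes called at 24 h (left, 1 line per gene) and for 8 other named genes (right, whiskers are SE). The 13 genes stay between −0.26 and 0.27 at 3 and 6 h and lie between 0.87 and 2.38 at 24 h, whereas the HD-ZIP gene, phytochrome B2, BES1/BZR1-like and *SlPIF3* are below 0 at all 3 times.

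Most flavonoid and anthocyanin genes fell in both organs, and the few called differences between the organs went in both directions. Of 14 listed genes, 8 fell in the first leaf and 9 in the cotyledons by more than 1 on the log2 scale, and the interaction was called above 0 for 2 and below 0 for 1. Chalcone synthase catalyses the first committed step of flavonoid synthesis. Chalcone synthase 1 (*Solyc09g091510*) had 64.5, 74.2 and 95.9 CPM in 24FR and 313, 317 and 358 CPM in 24WL in the first leaf, and 3.42, 4.73 and 3.04 CPM in 24FR and 71.8, 108 and 123 CPM in 24WL in the cotyledons. All groups were separate within an organ, and the gene fell by 2.07 in the first leaf and fell by 4.75 in the cotyledons on the log2 scale, an interaction of 2.68 ± 0.34 (adjusted p = 2.88e-07, edgeR). It was also called after 6 h (1.30, adjusted p = 0.0474) and stood at 0.02 after 3 h.

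Chalcone synthase 2 (*Solyc05g053550*) had 96.0, 109 and 126 CPM in 24FR against 389, 397 and 398 CPM in 24WL in the first leaf, and 21.4, 25.6 and 17.3 CPM against 165, 225 and 279 CPM in the cotyledons. It followed the same order as chalcone synthase 1, with an interaction of 1.54 ± 0.27 (adjusted p = 0.000186). Flavonoid 3',5'-hydroxylase (*Solyc11g066580*), which adds the hydroxyl groups of the blue anthocyanins, went the other way. It had 4.95, 4.68 and 3.22 CPM in 24FR against 133, 139 and 144 CPM in 24WL in the first leaf, and 10.02, 13.03 and 8.16 CPM against 80.8, 104 and 133 CPM in the cotyledons. It fell by 5.02 in the first leaf and fell by 3.35 in the cotyledons, an interaction of −1.67 ± 0.32 (adjusted p = 0.00123).

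The steepest falls of the list were not called as different. Dihydroflavonol 4-reductase (*Solyc02g085020*) fell by 9.21 in the first leaf and fell by 9.56 in the cotyledons on the log2 scale, with an interaction of 0.35 (adjusted p = 0.921). The transcription factor bHLH150 (*Solyc09g065100*) had 0, 0.0464 and 0.195 CPM in 24FR and 20.3, 22.4 and 27.3 CPM in 24WL in the first leaf, and no count at all in 24FR against 19.4, 20.98 and 35.5 CPM in 24WL in the cotyledons. At such low levels in 24FR a difference between the organs was not detectable at this depth (adjusted p = 0.503).

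Of the 3 genes that passed in both organs with the larger response in the first leaf, elongation factor 1-alpha (*Solyc11g069700*), a translation factor of a family with several copies, had the largest interaction. It had 9.63, 9.18 and 7.86 CPM in 24FR and 151, 128 and 156 CPM in 24WL in the first leaf. In the cotyledons it had 113, 93.1 and 144 CPM in 24FR and 492, 263 and 346 CPM in 24WL. The 24FR replicates lay below the 24WL replicates in both organs. It fell by 4.03 in the first leaf and fell by 1.65 in the cotyledons, and the interaction was −2.37 ± 0.34 (adjusted p = 7.86e-06, edgeR). It was 0.31 after 6 h and −0.20 after 3 h, and the difference between 24 h and 6 h was called (adjusted p = 0.00203). How reads that match several copies of the family were handled was not examined, so the value of this copy is uncertain.

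Among the genes called for the interaction and for light in at least 1 organ, with 24FR and 24WL replicates that did not overlap there and a group mean of at least 5 CPM, the 12 highest and the 12 lowest are named. The 12 highest hold, beside 7 chlorophyll a-b binding genes and both chalcone synthases, 3 further genes. A cysteine protease gene (*Solyc07g041920*) had 47.01, 39.6 and 31.6 CPM in 24FR against 87.8, 70.7 and 99.4 CPM in 24WL in the first leaf, and 4.54, 3.39 and 3.35 CPM against 20.4, 25.1 and 57.9 CPM in the cotyledons. It fell in both organs and further in the cotyledons, although its interaction of 2.07 ± 0.38 (adjusted p = 0.00146) became 1.47 without cotyledon 24WL replicate 3, the highest of its group. A dihydrofolate reductase-like gene (*Solyc06g060570*) had 51.7, 53.1 and 50.8 CPM against 69.5, 71.5 and 74.9 CPM in the first leaf and 6.78, 6.24 and 5.50 CPM against 18.1, 24.2 and 30.2 CPM in the cotyledons (1.50 ± 0.26, adjusted p = 0.000138). For a pectinesterase (*Solyc02g075620*), an enzyme acting on cell-wall pectin, the first leaf gave 35.3, 39.2 and 36.4 CPM in 24FR against 28.2, 27.9 and 27.6 CPM in 24WL, and the cotyledons gave 2.61, 3.64 and 2.21 CPM against 8.72, 5.79 and 4.76 CPM. The order of the lights was thus reversed between the organs, with a fall in the cotyledons and a first-leaf change of 0.40 that did not pass the test (interaction 1.58 ± 0.33, adjusted p = 0.00337).

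Most HD-Zip II genes of the shade pathway rose in both organs with larger fold changes in the cotyledons, and few of these differences passed the test. Of 5 tested HD-Zip II genes, transcription factors that are early marks of low R/FR, 4 rose in each organ and all 5 had an interaction below 0 (median −0.62), but only *Solyc01g090460* was called. It had 29.4, 24.8 and 24.8 CPM in 24FR and 4.04, 4.74 and 4.195 CPM in 24WL in the first leaf, and 35.6, 37.7 and 32.4 CPM in 24FR and 2.05, 1.91 and 1.44 CPM in 24WL in the cotyledons. The 24WL level was thus lower, and the 24FR level higher, in the cotyledons, without overlap (interaction −1.69 ± 0.28, adjusted p = 8.11e-05). It was also called after 6 h (−1.26, adjusted p = 0.0322) and after 3 h (−1.21, adjusted p = 0.0354).

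*ATHB2* (*Solyc06g060830*) had 133, 127 and 119 CPM in 24FR against 5.10, 6.57 and 5.02 CPM in 24WL in the first leaf, and 177, 202 and 210.2 CPM against 3.63, 5.04 and 4.98 CPM in the cotyledons. *SlATHB2* (*Solyc08g078300*) had 74.8, 70.8 and 56.8 CPM against 8.23, 7.59 and 5.37 CPM in the first leaf, and 137, 134 and 120.4 CPM against 12.4, 7.30 and 7.25 CPM in the cotyledons. In 24FR both genes were higher in every cotyledon replicate than in every first-leaf replicate. Their interactions of −0.91 ± 0.33 (adjusted p = 0.147) and −0.62 ± 0.30 (adjusted p = 0.318) did not pass. With a replicate block by light (the 4 groups alone, libraries of one light and replicate number as a block, organs compared within it) both passed (adjusted p = 0.00797 and 0.0322, edgeR), which made 3 calls among the HD-Zip II genes. *ATHB2* also passed in DESeq2 (0.0479), with library totals (0.0284) and in the 4 groups alone (0.0151). It did not pass in 19 of its 23 alternatives (adjusted p up to 0.35, edgeR), nor *SlATHB2* in 22 of 23 (up to 0.563).

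Phytochrome B2 (*Solyc05g053410*), a photoreceptor of this light, rose to 36.7, 40.9 and 41.1 CPM in 24FR in the first leaf, against 12.4, 11.9 and 12.7 CPM in 24WL, and to 46.6, 58.2 and 62.7 CPM in 24FR in the cotyledons, against 6.54, 7.94 and 5.37 CPM in 24WL. As with the HD-Zip II gene, the cotyledons were the lower organ in 24WL and the higher one in 24FR (interaction −1.40 ± 0.20, adjusted p = 7.86e-06), and the gene was called after 6 h as well (−1.04, adjusted p = 0.00437). It was the only call among 18 genes of light signalling and the clock.

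Among 7 tested *PIF* genes the interaction was called for 2, in opposite directions. *SlPIF3* (*Solyc01g102300*) had 54.3, 61.3 and 55.5 CPM in 24FR and 7.80, 8.45 and 7.46 CPM in 24WL in the first leaf, and 52.7, 61.0 and 63.2 CPM in 24FR and 4.03, 5.97 and 4.81 CPM in 24WL in the cotyledons. The organs overlapped in 24FR and differed in 24WL, where the first leaf was higher (interaction −0.72 ± 0.19, adjusted p = 0.0361). *SlPIF7a* (*Solyc03g115540*) fell in both organs, to 3.37, 3.06 and 4.10 CPM against 5.83, 5.49 and 6.05 CPM in the first leaf and to 1.87, 3.03 and 2.15 CPM against 7.27, 8.63 and 11.7 CPM in the cotyledons (1.25 ± 0.33, adjusted p = 0.0294). Both calls are close to the threshold. That of *SlPIF3* was kept only without first leaf 24FR replicate 2, first leaf 24WL replicate 3, cotyledon 24FR replicate 1 or cotyledon 24WL replicate 2 and was lost without any of the other 8 libraries (adjusted p up to 0.161). That of *SlPIF7a* was lost without replicates 1 or 3 of the cotyledons in 24FR, replicate 3 of the cotyledons in 24WL, replicate 3 of the first leaf in 24FR, or replicates 1 or 2 of the first leaf in 24WL (up to 0.0971), and also with a replicate block by light (0.0546) and in the 4 groups alone (0.0814). *SlPIF8a* (*Solyc01g090790*) stood at 216, 227 and 226 CPM against 221, 255 and 235 CPM in the first leaf and at 258, 278 and 279 CPM against 344, 362 and 332 CPM in the cotyledons, and its interaction of 0.26 was not called (adjusted p = 0.46).

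**Figure D4:**
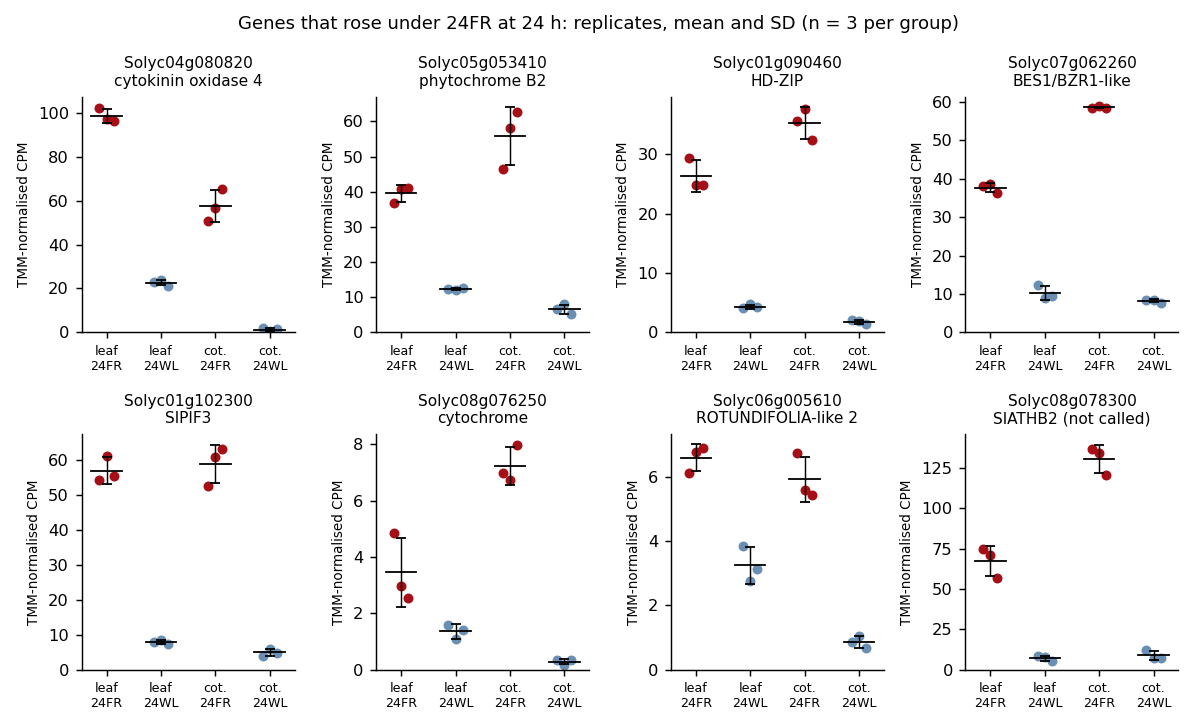
TMM-normalised CPM of 8 genes that rose in 24FR at 24 h, with 1 panel per gene, 3 replicates per group (dots), their mean (long bar) and SD (whiskers). Phytochrome B2, the HD-ZIP gene and BES1/BZR1-like are higher in the cotyledons than in the first leaf in 24FR and lower in 24WL, whereas cytokinin oxidase 4 has its highest values, 96.2 to 102 CPM, in the first leaf in 24FR. *SlATHB2* is shown for comparison and was not called.

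Hormone genes gave single calls. Cytokinin oxidase 4 (*Solyc04g080820*), which degrades cytokinin, had 102, 97.1 and 96.2 CPM in 24FR and 22.8, 23.8 and 21.3 CPM in 24WL in the first leaf. In the cotyledons it had 50.7, 56.5 and 65.2 CPM in 24FR and 1.78, 0.637 and 1.33 CPM in 24WL. The first leaf was higher in both lights, but the rise was by 2.12 in the first leaf and 5.54 in the cotyledons on the log2 scale, an interaction of −3.41 ± 0.53 (adjusted p = 2.19e-05, edgeR). It was the only call among 15 cytokinin genes. After 3 h its interaction was also called (−3.04, adjusted p = 0.0354), and after 6 h it was not (−1.38, adjusted p = 0.308).

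*Solyc07g062260*, a BES1/BZR1-type transcription factor of the brassinosteroid pathway, had 38.1, 38.7 and 36.3 CPM in 24FR against 12.2, 9.04 and 9.46 CPM in 24WL in the first leaf, and 58.5, 58.8 and 58.4 CPM against 8.53, 8.52 and 7.75 CPM in the cotyledons (interaction −0.95 ± 0.19, adjusted p = 0.00123). The 24WL groups were close to each other, and the 24FR groups were well apart. The other 11 genes of brassinosteroid and sterol synthesis and signalling were not called, and of all 12 listed 6 fell in the first leaf and 7 in the cotyledons. *Solyc03g112460*, a tryptophan aminotransferase-related gene of a family that makes an auxin precursor, fell to 28.01, 22.9 and 19.8 CPM in the first leaf, against 53.3, 44.9 and 42.1 CPM in 24WL, and to 35.5, 22.8 and 18.98 CPM in the cotyledons, against 117, 106 and 93.8 CPM in 24WL. The organs met in 24FR and were apart in 24WL (interaction 1.05 ± 0.23, adjusted p = 0.00699), and the call was lost without replicate 3 of the cotyledons in 24FR (adjusted p = 0.0553).

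*SlYUC9* (*Solyc06g083700*), a flavin monooxygenase of auxin synthesis, just missed the threshold. It had 1.95, 2.27 and 2.29 CPM in 24FR against 0.385, 0.431 and 0.0488 CPM in 24WL in the first leaf, and 4.11, 3.64 and 5.12 CPM against 0, 0 and 0.111 CPM in the cotyledons (interaction −3.68 ± 1.05, adjusted p = 0.0524). It passed without first leaf 24WL replicate 3 (−4.19, adjusted p = 0.0176) or cotyledon 24WL replicate 3 (−6.88, adjusted p = 0.0262). It also passed in the likelihood ratio test (adjusted p = 0.00242), with a replicate block (0.0497), the size factors of DESeq2 (0.0492) or library totals (0.018), and in limma, where the value shrank to −1.03 with a pseudocount of 1 (0.000348) and −2.34 with one of 0.1 (0.0175). *SlYUC9* did not pass in 14 of its 22 alternatives (adjusted p up to 0.176, edgeR). Among these were the 4 groups alone (0.103) and the replicate block by light (0.0881). The cotyledon level in 24WL rests on 2 counts, against 207 counts in 24FR, a ratio of 108 with a counting interval of 29.5 to 897 at 95%. *SlGA20ox2* (*Solyc06g035530*), a gibberellin synthesis gene, had 593 counts in 24FR and 1 count in 24WL in the first leaf and 751 and 0 counts in the cotyledons. The cotyledon level in 24FR was 261-fold that of a floor of 3 counts over the 24WL group, with a counting interval at 95% that began at 212. Against so low a 24WL level no difference between the organs was detectable (adjusted p = 0.694). None of 24 tested *SAUR* genes, small auxin-induced genes linked to growth, was called for the interaction (1 at an unadjusted p under 0.05, edgeR, 0 in DESeq2 or limma, and 1 with a replicate block by light), although 12 of them rose in the first leaf and 16 in the cotyledons. Over all 17469 genes tested, 2548 had an unadjusted p under 0.05 for the interaction in edgeR.

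Of the 12 lowest interactions, 7 belonged to further genes, and most of these were very low in the cotyledons in 24WL. *Solyc04g010285*, annotated only as a plant protein of unknown function, had 4.32, 5.15 and 3.22 CPM in 24FR against 0.289, 0.754 and 0.146 CPM in 24WL in the first leaf, and 11.8, 18.7 and 22.6 CPM in 24FR against no count in 24WL in the cotyledons. In the cotyledons it was at least 297-fold higher in 24FR, against a floor of 3 counts over the 24WL group, and the fitted interaction of −8.39 became −4.75 with the cotyledons set at that floor. It was called after 6 h and after 3 h as well, again below 0 (adjusted p = 6.08e-07 and 0.00734). *Solyc08g076250*, annotated as a cytochrome, had 4.84, 2.97 and 2.54 CPM against 1.59, 1.08 and 1.41 CPM in the first leaf and 6.97, 6.73 and 7.97 CPM against 0.330, 0.174 and 0.332 CPM in the cotyledons (interaction −3.35 ± 0.52, adjusted p = 2.19e-05). Its 24FR replicates were above its 24WL replicates in both organs, and it was called after 6 h too (−3.97, adjusted p = 0.000241).

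*Solyc06g005610*, related to the ROTUNDIFOLIA family of small peptides that in Arabidopsis restrain leaf growth, had 6.11, 6.77 and 6.88 CPM against 3.85, 2.75 and 3.12 CPM in the first leaf and 6.72, 5.58 and 5.44 CPM against 0.859, 1.04 and 0.664 CPM in the cotyledons. The organs overlapped in 24FR and were apart in 24WL (interaction −1.77 ± 0.33, adjusted p = 0.00067). *Solyc06g083480*, an NAD(P)-binding Rossmann-fold protein, had 23.6, 19.98 and 19.7 CPM against 17.2, 14.4 and 15.7 CPM in the first leaf and 15.6, 9.45 and 8.35 CPM against 3.44, 2.61 and 3.60 CPM in the cotyledons (−1.37 ± 0.33, adjusted p = 0.0147). This call was lost without replicate 1 of the cotyledons in 24FR or replicate 2 in 24WL (adjusted p up to 0.0982).

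A peroxidase (*Solyc08g069040*, −2.30 ± 0.61, adjusted p = 0.033), a trihelix factor like *GTL1* (*Solyc08g061910*, −1.60 ± 0.45, adjusted p = 0.0483) and a second pectinesterase (*Solyc08g078640*, −1.60 ± 0.42, adjusted p = 0.0303) complete the 12 lowest. The peroxidase had 4.84, 8.11 and 5.62 CPM against 3.18, 2.75 and 2.93 CPM in the first leaf and 8.34, 7.09 and 6.96 CPM against 0.925, 0.753 and 0.498 CPM in the cotyledons. The trihelix gene had 16.4, 14.7 and 15.2 CPM against 5.68, 7.64 and 5.32 CPM in the first leaf and 1.12, 2.91 and 2.34 CPM against 0.264, 0.348 and 0.221 CPM in the cotyledons. Both genes rose in both organs. The pectinesterase rose in the cotyledons and did not pass the test in the first leaf, with 8.32, 12.1 and 15.7 CPM against 14.8, 17.1 and 16.05 CPM in the first leaf, groups that overlapped, and 1.74, 2.30 and 1.27 CPM against 0.991, 0.579 and 0.775 CPM in the cotyledons. These 3 calls are fragile, since the peroxidase lost its call without any of 9 of the 12 libraries, the trihelix gene without any of 10 and the pectinesterase without any of 7 (adjusted p up to 0.0756, 0.152 and 0.125). The peroxidase kept its call without first leaf 24FR replicate 2 or 3 or cotyledon 24FR replicate 2. The trihelix gene kept it without first leaf 24WL replicate 3 or cotyledon 24FR replicate 1, and the pectinesterase without first leaf 24FR replicate 3, first leaf 24WL replicate 1 or 3, cotyledon 24FR replicate 3 or cotyledon 24WL replicate 1. The interaction of the trihelix gene was −0.05 in limma with a pseudocount of 1 (adjusted p = 0.967), and 16 of its 22 alternatives lost the call.

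Genes of cell division leaned below 0 with a single call in the quasi-likelihood test. Of 39 tested genes of mitotic cyclins, kinesins and related microtubule proteins, 33 had an interaction below 0 and the list median was −0.44. At an unadjusted p under 0.05 in edgeR 12 of the 39 passed, beside 2548 of all 17469 genes tested. The only call was a kinesin-like gene (*Solyc12g099540*), with 19.8, 18.03 and 16.8 CPM in 24FR against 12.2, 13.5 and 12.5 CPM in 24WL in the first leaf and 19.1, 18.5 and 20.4 CPM against 8.66, 10.02 and 8.47 CPM in the cotyledons (−0.58 ± 0.12, adjusted p = 0.00355). It rose in both organs, and its 24FR groups overlapped between the organs. The number of calls in the list varied with the setting. The likelihood ratio test called 3 members, library totals 5 and the replicate block by light 2. DESeq2 and the fit of the 4 groups alone called 0. The mitotic cyclin *Solyc10g080950*, for example, had 10.1, 12.4 and 12.6 CPM in 24FR against 16.9, 16.9 and 17.95 CPM in 24WL in the first leaf, where it fell, and 1.93, 3.64 and 1.90 CPM against 2.05, 2.32 and 1.44 CPM in the cotyledons, where the groups overlapped. Its interaction of −0.93 ± 0.32 was not called (adjusted p = 0.119). The list holds the 5 mitotic cyclins of the dissection check, whose summed level was lower in 24FR in the first leaf, and the part of the number of dividing cells in these values was not tested.

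Jasmonate and defence genes showed the opposite lean and no call in the quasi-likelihood test. Of 34 tested genes 2 fell in the first leaf and 15 in the cotyledons, 24 had an interaction above 0 and the list median was 0.45. At an unadjusted p under 0.05 in edgeR 10 of them passed, beside 2548 of all 17469 genes tested. DESeq2 called 1 of the 34 and limma 1 or 3, depending on the pseudocount. The likelihood ratio test called 5, the replicate block by light 9, and the fits without cotyledon 24WL replicate 1 or first leaf 24WL replicate 3 called 3 each. The highest interactions there were those of 2 leucine aminopeptidase genes (*Solyc12g010030*, 4.68, adjusted p = 0.189, and *Solyc12g010020*, 4.24, adjusted p = 0.0544) and threonine deaminase (*Solyc09g008670*, 2.87, adjusted p = 0.0931). Threonine deaminase had 16.8, 8.53 and 10.3 CPM in 24FR against 4.96, 4.14 and 17.2 CPM in 24WL in the first leaf, groups that overlapped, and 15.6, 28.8 and 13.9 CPM against 39.0, 60.3 and 217 CPM in the cotyledons, where replicate 3 in 24WL was far above the others. No member was called for the lists of Aux/IAA, gibberellin, ethylene and abscisic acid, expansin and XTH, histones and replication, leaf and meristem development, sugar transport and cleavage, senescence and NAC, or NRT1/PTR transporters, whose medians ran from −0.09 to 0.15 and of which 0 to 4 members passed at an unadjusted p under 0.05 in edgeR. DESeq2 called 1 member among these lists, an NRT1/PTR transporter, and limma 0, while other settings called at most 2 members of any of these lists.

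**Figure D5:**
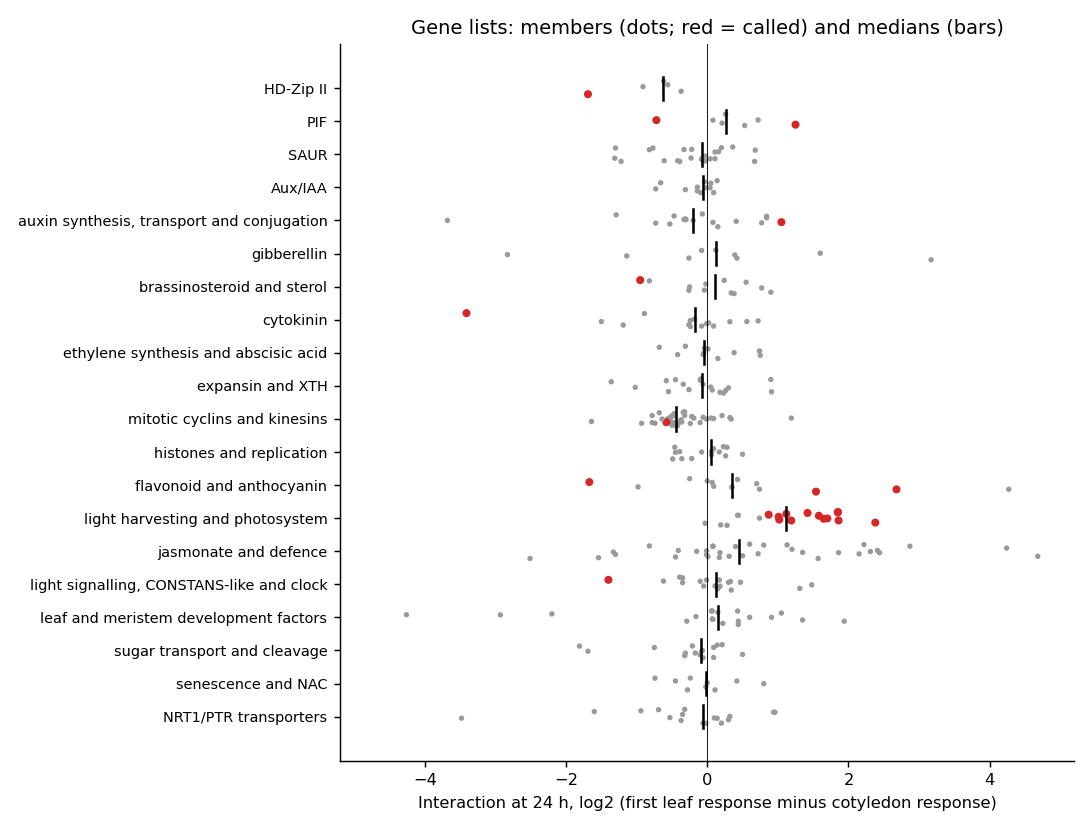
Interaction at 24 h (log2, first-leaf response minus cotyledon response) of every tested member of the 20 gene lists (dots), with members called at an adjusted p under 0.05 in red and the median of each list as a bar. The red dots gather in the light-harvesting list, whose median is 1.12, and every other list holds 3 or fewer of them.

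More genes were called for the interaction at 24 h than at the earlier times. Of the 305 genes called at 24 h, 63 were also called for the interaction at 24 h minus that at 6 h. For 24 h minus 3 h this held for 39, and for both differences for 30. The counts after 3 h and 6 h were not recomputed under the alternative settings. After 6 h the interaction was called for 34 genes (0.195%), 10 above 0 (0.0572%) and 24 below it (0.137%). After 3 h it was called for 28 genes (0.16%), 3 above 0 (0.0172%) and 25 below it (0.143%), and at 24 h for the 160 and 145 genes given above, all in the same fit. These times share no library. Of the 34 genes 12 were called at 24 h too, 11 of them with the same sign, and of the 28 genes 7, all with the same sign. The 160 genes above 0 at 24 h had a median interaction of −0.06 after 6 h and −0.02 after 3 h, and the 145 genes below 0 had −0.05 and −0.11.

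The levels in each light come from the same libraries. In 24FR the 160 genes were higher in the first leaf than in the cotyledons by a median of 0.94 on the log2 scale, against 0.32 in 24WL, where 92 of them already passed the test as higher in the first leaf, as did 30.4% of all genes. For the 145 genes the median difference was −0.06 in 24FR and 0.52 in 24WL, where 106 of them passed the test as higher in the first leaf. These are medians of signed differences, and single genes among the 145 lay on both sides of 0.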

How the data were processed

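RNA was sequenced as single-end 100-bp reads, which the authors aligned to the SL4.0 build with STAR 2.7.9a and counted per gene with HTSeq 0.13.5 (reverse strand, intersection-strict). The deposited values used here are raw read counts, and the normalised CPM signal that the authors computed with edgeR 3.40.2 entered 2 alternatives only. Rows without a gene, 13.0 to 15.4% of the counts in the 12 libraries, were left out. All 72 WT libraries (24 groups of organ, time and light) were fitted together in R 4.3.3 with edgeR 4.0.16 (TMM, quasi-likelihood test, Benjamini-Hochberg), which shares one estimate of the spread. The filter kept genes whose CPM exceeded 5 in 3 or more libraries, 17469 of 34075. The interaction was called at an adjusted p under 0.05, and the light responses needed an absolute log2 fold change above 1 too. The printed CPM are TMM-normalised. Standard errors were derived from the test statistic. limma 3.58.1 and DESeq2 1.42.0 served alternatives, figures were drawn with matplotlib 3.10.9, and the fits were tested on simulated data.

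Genes were named by the rule on size, overlap and level stated in the report, together with every called gene of 20 lists (348 genes) and genes named by the study. The comparison, its members and the lists were chosen with earlier results of these data known. Product names came from the annotation that accompanies the study, 3320 genes, and cover 89 of the 305 called genes. Deviations of same-numbered replicates correlated with r of 0.14 to 0.35 between the cotyledons in 24FR and 24WL. Between the organs r was 0.09 to 0.39 in 24FR and −0.02 to 0.31 in 24WL. Between the first leaf in 24FR and 24WL it was 0.02 to 0.24. These values come from the data and not from the labels, and the main fit used no pairing. Sequences were not used here.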

Additional observations from a re-analysis of the deposited data

Results flagged for a closer look

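In 35 of the genes described, the light responses of the 2 organs differed by the interaction test, and the values below are first-leaf response minus cotyledon response on the log2 scale. The 13 chlorophyll a-b binding genes gave 2.38 (*Solyc02g070950*), 1.86 (*Solyc02g071000*), 1.85 (*Solyc02g070990*), 1.85 (*Solyc06g069730*), 1.70 (*Solyc02g070970*), 1.65 (*Solyc08g067330*), 1.58 (*Solyc08g067320*), 1.42 (*Solyc02g070980*), 1.19 (*Solyc02g071010*), 1.12 (*Solyc07g063600*), 1.02 (*Solyc12g006140*), 1.01 (*Solyc05g056050*) and 0.87 (*Solyc03g115900*). The other genes above 0 were chalcone synthase 1 with 2.68, the cysteine protease with 2.07, pectinesterase *Solyc02g075620* with 1.58, chalcone synthase 2 with 1.54, the dihydrofolate reductase-like gene with 1.50, *SlPIF7a* with 1.25 and the tryptophan aminotransferase-related gene with 1.05.

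Among shade and hormone genes the values below 0 were −3.41 for cytokinin oxidase 4, −1.69 for the HD-Zip II gene *Solyc01g090460*, −1.40 for phytochrome B2, −0.95 for the BES1/BZR1-type gene and −0.72 for *SlPIF3*. The gene of unknown function *Solyc04g010285* gave −8.39, the cytochrome −3.35, elongation factor 1-alpha −2.37, the peroxidase −2.30, the ROTUNDIFOLIA-like gene −1.77, flavonoid 3',5'-hydroxylase −1.67, the trihelix gene −1.60, pectinesterase *Solyc08g078640* −1.60, the Rossmann-fold gene −1.37 and the kinesin-like gene −0.58.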

How the results depend on the processing

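The 13 light-harvesting calls stayed at 13 in every fit without 1 library, and 12 of them also had an absolute interaction above 1. Over the fits without 1 library, genes above 0 for the interaction ranged between 80 and 278 and genes below 0 between 84 and 176, cotyledon calls between 256 and 291 higher and 141 and 180 lower, first-leaf calls between 86 and 120 higher and 78 and 99 lower, and calls within the lists between 21 and 29.

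Genes above and below 0 numbered 460 and 123 in DESeq2's Wald test, 272 and 114 with its size factors in edgeR, 109 and 1091 with library totals, 119 and 96 with no filter on low counts, 85 and 74 in the 4 groups alone, and 24 and 27 with an absolute log2 value above 1. The causes of these shifts were not tested. DESeq2 left an adjusted p for 7309 genes only. Genes that rose in the cotyledons numbered 467 with library totals and 161 in limma with a pseudocount of 1. The interaction at 24 h minus that at 6 h gave 31 genes lower in the likelihood ratio test and 111 higher and 27 lower in DESeq2, and minus that at 3 h 188 higher and 7 lower in DESeq2. Calls within the lists numbered 38 in the likelihood ratio test, 46 with library totals and 50 with a replicate block by light. The slope of first-leaf on cotyledon response was 0.63 over genes called in either organ, 0.76 over first-leaf calls, 0.75 over genes called in both and 0.50 over all genes.

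The replicate block gave 205 and 163 genes for the interaction, 278 and 170 for the cotyledons and 108 and 92 for the first leaf. Blocking by replicate and light gave 275 and 174 for the interaction. Every cotyledon library correlated best with its own number in the other light, as did 4 of 6 libraries of the first leaf. Between the organs, 5 of 6 libraries did so in 24FR and 2 of 6 in 24WL.

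Of 35 called genes followed one by one, 25 kept the call in every alternative that gave a value, and 0 of the 38 genes followed changed sign. DESeq2 gave no adjusted p for *Solyc01g090460*, *Solyc04g010285*, *Solyc04g080820*, *Solyc06g005610*, *Solyc06g060570* and *Solyc08g076250* among the 25, and limma none for the last of these. With 3 replicates and few reads in some groups, differences in genes at a few CPM were the least certain. Fitted on these 4 groups without the other 20, *Solyc03g112460* (adjusted p = 0.0837, edgeR), the cysteine protease *Solyc07g041920* (0.0596), *Solyc12g099540* (0.0523), *SlPIF7a* *Solyc03g115540* (0.0814), the trihelix gene *Solyc08g061910* (0.135) and the pectinesterase *Solyc08g078640* (0.0811) kept their direction and lost their call.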

Other observations

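Outside the naming rule and the lists, and chosen after their values were seen, 3 further called genes are given. Geranylgeranyl diphosphate reductase (*Solyc03g115980*), which supplies the side chain of chlorophyll, had 3283, 3094 and 2712 CPM in 24FR against 3245, 2961 and 3114 CPM in 24WL in the first leaf, groups that overlapped. In the cotyledons it had 1285, 1267 and 1074 CPM in 24FR against 2618, 2536 and 2280 CPM in 24WL, groups far apart. Its interaction was 1.00 ± 0.16 (adjusted p = 2.27e-05, edgeR).

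In the other direction, a beta-tubulin gene (*Solyc10g080940*), a subunit of microtubules, had 225, 198 and 171 CPM in 24FR against 152, 121 and 125 CPM in 24WL in the first leaf and 200.3, 218 and 177 CPM against 70.0, 73.4 and 63.4 CPM in the cotyledons. It rose in both organs, by 0.58 in the first leaf and 1.53 in the cotyledons on the log2 scale, and the 24FR groups of the organs overlapped (interaction −0.95 ± 0.11, adjusted p = 8.71e-08). Its interaction was −0.03 after 6 h.

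*Solyc11g008530*, annotated as Dicer-like 2d of the RNA-silencing machinery, was the other gene beside flavonoid 3',5'-hydroxylase and elongation factor 1-alpha that fell in both organs and further in the first leaf. It had 2.47, 1.72 and 2.83 CPM in 24FR against 13.2, 8.23 and 12.2 CPM in 24WL in the first leaf and 10.4, 7.88 and 8.54 CPM against 24.1, 11.5 and 18.9 CPM in the cotyledons, without overlap in either organ (interaction −1.24 ± 0.34, adjusted p = 0.0365).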
